A study of Homo sapiens with 12 samples.

Results

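SCC15 is a cell line from a human squamous cell carcinoma of the tongue, a head and neck squamous cell carcinoma (HNSCC). Squamocin is a compound from the seed of Annona squamosa and a member of the annonaceous acetogenins (ACGs), lipid-like plant molecules known as inhibitors of mitochondrial Complex I. The comparison described here asked how the transcriptome of SCC15 cells responded to squamocin at 10 µg/mL for 24 h. The treated group was 3 libraries of SCC15 cells given the ACG squamocin and the control group was 3 libraries of SCC15 cells given its solvent, dimethyl sulfoxide (DMSO). Both groups share the same line and the same 24 h time point, and no genetic change or further agent is labelled. A single line is a limited model of HNSCC. These are 6 of the 12 libraries of the series, the other 6 being SCC25 cells, another HNSCC line, under the same treatments. Of 29657 genes listed for SCC15, the 15902 with a mean normalized count of at least 10 over the 6 libraries were chosen, without use of the treatment, and tested. The labels do not say whether replicates came from separate cultures, so p-values measure only the spread between these libraries, which may be technical. In bulk RNA, less of a transcript per cell and fewer cells that carry it cannot be told apart.

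Complex I takes electrons from NADH at the entry of the respiratory chain. Its subunits are encoded partly in the nucleus and partly in the mitochondrial genome. Cells that sense mitochondrial or endoplasmic reticulum (ER) trouble slow translation through phosphorylation of eIF2α, a step that favours translation of the transcription factor ATF4. ATF4 and its partner CHOP, encoded by DDIT3, act on genes of amino acid supply, tRNA charging and cell death. Unfolded proteins in the ER raise chaperones through ATF6 and XBP1, and unfolded proteins in the cytosol raise heat shock proteins through HSF1. The sections that follow go through these arms first and then through metabolism, growth, inflammation and the squamous character of the cells.

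The SCC15 libraries held 17656864 to 19792137 reads with squamocin and 17717192 to 19649275 with DMSO, recovered from the deposited values. The deposited scaling gave squamocin libraries larger totals of normalized counts, from 20467856 to 24626253, than DMSO libraries, from 15466464 to 15535484. Squamocin replicate 3 stood apart. Its counts differed from those of squamocin replicates 1 and 2 with a chi-square per degree of freedom of 71.6 and 63.5, against 3.65 between replicates 1 and 2 and 2.03 to 2.75 among DMSO libraries. The median standard deviation (SD) of log2 values was 0.260 over the 3 squamocin libraries, 0.0864 over replicates 1 and 2 alone and 0.0800 over the DMSO libraries. Values without replicate 3 are given below where they moved most. KRT17, a keratin of squamous carcinomas, measured 203624 to 354162 with squamocin and 109182 to 115353 with DMSO, and KRT14 and CDH1 were detected in every library. The basal keratin KRT5 averaged 5.41 and 9.50 and the desmosomal cadherin DSG3 1.19 and 1.44, both under the minimum mean. The squamous transcription factor TP63 averaged 10.5 with squamocin and 17.5 with DMSO, the keratin KRT6A 116 and 134, and the integrin ITGB4 170 and 215. KRT17 (1.17) and KRT14 (0.89) were called higher, whereas TP63 (-0.72), KRT6A (-0.21), CDH1 (-0.10) and ITGB4 (-0.35) were not called. Markers of other cells were mixed. PTPRC, CD68 and ITGAM of leukocytes, VWF and CLDN5 of endothelium and COL1A2 and PDGFRB of fibroblasts averaged under 5 in both treatments. In contrast CD14 averaged 379 with squamocin and 504 with DMSO, COL3A1 259 and 445, COL1A1 135 and 151, DCN 77.9 and 131 and PECAM1 72.0 and 166. The summed levels of the fibroblast list were 486 to 490.1 with squamocin and 721 to 795 with DMSO, those of the leukocyte list 320 to 508 and 500 to 543, and those of the endothelial list 68.4 to 77.5 and 158 to 179. COL3A1 (-0.78), DCN (-0.76) and PECAM1 (-1.19) of these lists were called lower. The part of other cells in the results was not tested.

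Across the 15902 genes, 4921 were higher with squamocin (30.9%) and 4773 were lower (30.0%) at an adjusted p below 0.05 in limma. These shares are the background for every count given below, and the median log2 fold change of all genes was 0.012. Changes of more than 2-fold were found for 1998 higher and 2320 lower genes, and changes of more than 8-fold for 148 and 150. The squamocin libraries lay wholly above the DMSO libraries for 5678 genes (35.7%) and wholly below for 5543 (34.9%). Most genes named below were picked among genes without overlap, so their separation was set by the choice. The balance of rises and falls depended on the scaling. With library totals set equal, 2357 genes were higher (14.8%) and 8033 were lower (50.5%), the share of rises among calls went from 50.8% to 22.7%, and the median of all genes shifted by -0.49. A rise smaller than about that amount turns into a fall under equal totals, so such genes are read relative to the shift. Without squamocin replicate 3, 6103 genes were higher (38.4%) and 5920 were lower (37.2%), and no gene had opposite calls with and without it. Of the genes called higher without replicate 3, 89.6% lay above the DMSO mean in replicate 3 as well, and of those called lower 91.4% lay below it. The plot of normalized counts by library shows genes from each main group described below.

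**Figure D1:**
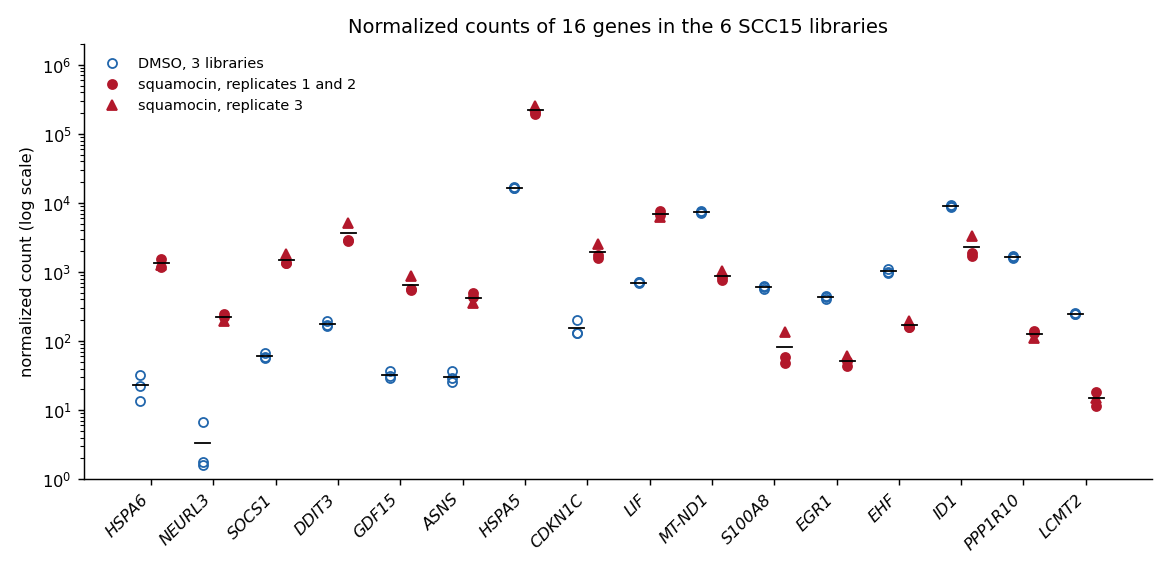
Normalized counts (log axis) of 16 genes in the 6 SCC15 libraries, with open circles for DMSO, filled circles for squamocin replicates 1 and 2, triangles for squamocin replicate 3 and a black bar for the mean of each treatment. For each of these 16 genes the 3 squamocin libraries lie wholly above or wholly below the 3 DMSO libraries, from HSPA5 at 193195 to 252091 with squamocin to LCMT2 at 11.4 to 18.5.

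The largest rises included the chaperone gene HSPA6 and the stress genes DDIT3 and GDF15. HSPA6 encodes an HSP70 chaperone that is nearly silent in unstressed cells (ENSG00000173110, GRCh38 chr1:161524540-161526910, + strand). It measured 1529, 1191 and 1278 with squamocin and 13.6, 32.4 and 22.7 with DMSO. The difference on the log2 scale was 5.87 ± 0.284 (log2 fold change ± its standard error, n = 3 per treatment, limma adjusted p = 1.22e-05). The lowest treated library was far above the highest control library. Its pseudogene HSPA7 is a close copy, so some reads may belong to either. NEURL3, a neuralized-family E3 ubiquitin ligase (ENSG00000163121, chr2:96497643-96508109, - strand), measured 226, 248 and 197 with squamocin against 6.82, 1.58 and 1.75 with DMSO. Its log2 fold change was 5.87 ± 0.434 (limma adjusted p = 5.37e-05), and the DMSO values rest on a handful of reads.

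DDIT3, which encodes CHOP (ENSG00000175197, chr12:57516588-57521737, - strand), measured 2877, 2820 and 5142 with squamocin and 193, 167 and 168 with DMSO. Its log2 fold change was 4.30 ± 0.227 (limma adjusted p = 1.62e-05) and 4.01 without replicate 3, the highest of the treated libraries. GDF15, a secreted stress hormone of the TGF-beta superfamily, measured 565, 543 and 862 against 29.0, 31.6 and 36.7, a log2 fold change of 4.27. Both genes separated the treatments completely. The other genes among the 10 largest rises were RASD1, a Ras-like GTPase (4.82), GADD45G, a growth arrest gene (4.76), AC013394.1, a gene model without an established role (4.75), SOCS1, a suppressor of cytokine signalling (4.58), RNF223, a RING finger gene (4.42), and RHOV, a small GTPase gene (3.96). Each of the 10 rose under equal totals as well, the smallest of those values being 3.47 for RHOV. They were chosen among called protein-coding genes that averaged 100 or more, did not overlap between treatments and did not lie on chromosome 8.

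The largest falls came from genes of varied function. LCMT2, which modifies a tRNA base (ENSG00000168806, chr15:43323649-43330605, - strand), measured 18.5, 11.4 and 14.9 with squamocin and 244, 255 and 248 with DMSO. Its log2 fold change was -3.99 ± 0.201 (limma adjusted p = 1.39e-05). PPP1R10, which encodes the phosphatase-1 targeting subunit PNUTS (ENSG00000204569, chr6:30600400-30618612, - strand), measured 138, 129.9 and 111 against 1696, 1629.5 and 1614, a log2 fold change of -3.70. ZC3H4, a zinc finger protein that limits unproductive transcription, fell from 984, 963 and 965 with DMSO to 110.1, 109 and 77.1 (log2 fold change -3.30). For these 3 genes no treated library came near a control library. The remaining falls in this group of 10 were MT-ATP8 of the mitochondrial genome (-4.05), MOCS3 of molybdenum cofactor synthesis (-3.71), LRG1, a secreted leucine-rich glycoprotein (-3.69), RIBC2 (-3.67), the zinc finger gene ZFP3 (-3.62), the thyroid hormone deiodinase DIO2 (-3.40) and the lipid flippase gene ATP8B4 (-3.21).

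The ATF4-CHOP arm rose broadly. Of 17 tested effectors 14 were higher and 1 was lower, with a median log2 fold change of 1.97, and 12 and 1 under equal totals. ATF4 itself measured 19659, 20227 and 27711 with squamocin and 4623, 4807 and 4636 with DMSO, a log2 fold change of 2.25 ± 0.144 (limma adjusted p = 3.21e-05). The treatments did not overlap. PPP1R15A, the phosphatase subunit that reverses eIF2α phosphorylation, rose by a log2 fold change of 3.46, the pseudokinase gene TRIB3 by 3.09, the mTORC1 inhibitor gene DDIT4 by 2.95 and NUPR1 by 2.73. Members named with a log2 fold change alone were chosen after their values were seen. ATF5, a further bZIP factor of this arm, was the member that fell, from 799, 852 and 874 with DMSO to 460.2, 487 and 599.7 with squamocin (log2 fold change -0.71).

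Amino acid supply split into rises and falls. Of 17 genes of serine, one-carbon and amino acid synthesis, 11 were higher and 6 were lower, so each was called, and 8 and 6 were under equal totals. Asparagine synthetase, ASNS (ENSG00000070669, chr7:97852118-97872542, - strand), measured 490.3, 433 and 352 with squamocin and 36.7, 29.3 and 25.3 with DMSO, a log2 fold change of 3.76 ± 0.190 (limma adjusted p = 1.39e-05). PHGDH, the entry enzyme of serine synthesis, measured 5178, 5284 and 7286 against 1688, 1546 and 1628, a log2 fold change of 1.85. Both genes were higher in each treated library than in any control library. The mitochondrial folate enzymes MTHFD2 (1.81) and SHMT2 (1.53) rose, whereas the folate genes SHMT1 (-0.59) and MTHFD1 (-0.51), whose products act mainly outside the mitochondria, fell. Among 20 cytosolic tRNA synthetases 15 were higher and 1 was lower, led by AARS (1.71) and GARS (1.63), and under equal totals 8 were higher and 5 lower. Without squamocin replicate 3 the counts were 15 and 4. WARS, the tryptophan enzyme, fell from 13615, 13721 and 13553 to 8413, 8558 and 10524. Amino acid transporters had a median of -0.34, with 6 higher and 9 lower of 19, and 2 and 11 under equal totals. SLC3A2, the shared heavy chain of several exchangers, measured 19839, 19884 and 25324 against 5995, 5416 and 5564 (log2 fold change 1.93), and its cystine-importing partner SLC7A11 was called higher too. SLC1A3, a glutamate and aspartate importer, measured 213, 221 and 185 against 859.9, 878 and 797 (-2.03). The transporters thus went in both directions, SLC3A2 and SLC1A3 without overlap between treatments.

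Chaperones of the ER rose as a group. Of 22 ER chaperones and foldases 18 were higher and 0 were lower (median 1.15). HSPA5, which encodes BiP, the main HSP70 of the ER lumen (ENSG00000044574, chr9:125234853-125241330, - strand), measured 209093, 193195 and 252091 with squamocin and 16615, 16954 and 16509 with DMSO. Its log2 fold change was 3.70 ± 0.149 (limma adjusted p = 7.93e-06), and its share of normalized counts was 1.02%, 0.928% and 1.02% against 0.107% to 0.109%. SDF2L1, a BiP partner, had a log2 fold change of 2.73, MANF one of 2.19 and HSP90B1, the ER HSP90, one of 2.07. The members without a call were ERO1B, CNPY2, DNAJC3 and DNAJC10, with log2 fold changes of 0.09 to 0.18. Under equal totals 16 members were higher and 3 were lower.

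Cytosolic heat shock genes were mixed, with 12 higher and 3 lower of 20 (median 0.51), 7 higher and 8 lower under equal totals, and 13 higher and 5 lower without squamocin replicate 3. The list includes HSPD1 (0.68) and HSPE1 (0.90), chaperones of the mitochondrial matrix, which rose. The small heat shock gene CRYAB measured 342, 246 and 200.3 with squamocin and 26.4, 28.5 and 35.8 with DMSO, a log2 fold change of 3.05. HSPA1B had a log2 fold change of 2.20 and its near-identical copy HSPA1A one of 2.01, a pair whose reads the counting could have divided in an unknown way. Among constitutively expressed members HSP90AB1 (0.84) rose, while HSPA8 had a log2 fold change of 0.11 (limma adjusted p = 0.382) and HSP90AA1 one of 0.27 (adjusted p = 0.0823), both smaller than the shift under equal totals. HSPB8 (-0.79) fell, and the fall of HSPA4 (-0.37, limma adjusted p = 0.0271) was lost when any single library other than squamocin replicate 3 was left out, with values of -0.39 to -0.31.

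The promoter windows of HSPA6, HSPA5 and ASNS are shown because each gene rose more than 8-fold and its window holds an element named for a stress response, and they were chosen after their values were seen. Each window is the 250 bases before the RefSeq transcription start on GRCh38.p14, written 5′ to 3′ on the gene's strand with matches in capitals. The HSPA6 window (chr1:161524290-161524539, + strand) holds 2 matches to the heat shock element core GAANNTTC, the HSPA5 window (chr9:125241344-125241593, - strand) 1 match to the ER stress element, CCAAT and CCACG with 9 bases between, and the ASNS window (chr7:97872409-97872658, - strand) 1 match to the amino acid response element TGATGNAA.
HSPA6: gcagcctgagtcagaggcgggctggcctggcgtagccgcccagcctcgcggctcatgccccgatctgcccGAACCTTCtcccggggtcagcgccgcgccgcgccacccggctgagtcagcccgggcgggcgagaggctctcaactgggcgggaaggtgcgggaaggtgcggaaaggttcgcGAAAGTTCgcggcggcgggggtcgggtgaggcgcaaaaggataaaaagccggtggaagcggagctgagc
HSPA5: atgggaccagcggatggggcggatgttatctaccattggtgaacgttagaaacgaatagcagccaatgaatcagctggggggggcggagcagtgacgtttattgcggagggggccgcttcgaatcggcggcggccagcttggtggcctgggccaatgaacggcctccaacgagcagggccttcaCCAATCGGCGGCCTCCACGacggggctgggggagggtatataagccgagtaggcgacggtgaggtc
ASNS: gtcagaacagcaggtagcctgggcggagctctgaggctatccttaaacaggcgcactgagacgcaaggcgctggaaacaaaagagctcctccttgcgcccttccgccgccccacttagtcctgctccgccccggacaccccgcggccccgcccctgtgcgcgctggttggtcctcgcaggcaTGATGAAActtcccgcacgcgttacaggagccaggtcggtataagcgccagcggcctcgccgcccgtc
Matches on both strands were counted, and any overlap with another motif was left in. The ER stress element was rare, present in 25 of 27305 RefSeq genes with a window (0.0916%) and in 7 of the 21 ER chaperones and foldases with one (33.3%). Those 7 were HSPA5, HSP90B1, CALR, CRELD2, PDIA6, CANX and ERO1B, and 6 of them rose. The element was held by 16 of 11109 genes tested (0.144%), by 10 of 3482 genes called higher (0.287%) and by 2 of 3474 called lower (0.0576%). The heat shock element core was held by 7.05% of all genes, 5.74% of genes tested and 12 of 19 cytosolic heat shock genes (63.2%). Of higher genes 5.74% held it, and of lower genes 5.90%. The amino acid response element was held by 3.89% of all genes and 2.27% of genes tested. It was held by 4 of 16 ATF4-CHOP effectors (25%), namely CHAC1, ATF3, CEBPG and JDP2. It was also held by the tRNA synthetase genes AARS, GARS and IARS and by SLC1A3, which fell. Among higher genes 2.13% held it and among lower genes 2.59%. The antioxidant response element TGACNNNGC was held by 13.2% of all genes and 4 of 16 NRF2 targets (25%). The sterol regulatory element TCACNCCAC was held by 1.09% of all genes, 1.13% of genes tested and 1 of 16 cholesterol genes, SREBF2, whose log2 fold change was 0.02. A match describes the letters of the window and is not evidence of binding.

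Transcripts of the mitochondrial genome moved in opposite directions by class. Of the 13 protein-coding genes 13 were lower, with a median log2 fold change of -2.26, whereas both ribosomal RNAs were higher. The 13 genes together took 0.393%, 0.323% and 0.307% of normalized counts with squamocin and 1.41% to 1.45% with DMSO (exact permutation test, two-sided p = 0.1, the smallest that 3 against 3 libraries allow). MT-ND1, a Complex I subunit encoded just after the ribosomal RNAs (ENSG00000198888, chrMT:3307-4262, + strand), measured 849.7, 771 and 1018 with squamocin and 7284, 7549 and 7239 with DMSO, a log2 fold change of -3.07 ± 0.114 (limma adjusted p = 5.66e-06). MT-ND3 had a log2 fold change of -3.16, MT-CO3 one of -2.81 and MT-CYB one of -1.84. The smallest fall was that of MT-ND4, at 22253, 19511 and 20923 against 30712, 31716 and 30820.0, a log2 fold change of -0.57. MT-ND6, encoded on the other strand, fell by 1.45 on the log2 scale. MT-ATP8 overlaps MT-ATP6 and MT-ND4L overlaps MT-ND4, and how overlapping reads were assigned leaves their separate values uncertain. MT-ND5 and MT-ND4L were lower in squamocin replicate 3 than in replicates 1 and 2, and their log2 fold changes without it were -1.97 and -0.97 in place of -2.24 and -1.36.

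MT-RNR1, the small ribosomal RNA, measured 17663, 14309 and 24247 with squamocin and 5671, 5984 and 5917 with DMSO (log2 fold change 1.64). MT-RNR2, the large one, measured 97559.5, 83648 and 123524 against 33686, 34241 and 35327 (1.54). Both remained higher under equal totals, at 1.15 and 1.04, and in each treated library. MT-TC had a log2 fold change of -3.33, MT-TY one of -3.16 and MT-TN one of -3.11, while MT-TP, encoded on the same strand as these 3, had one of -0.23 (limma adjusted p = 0.134) and was lower under equal totals (-0.73, adjusted p = 0.00623). MT-TG and MT-TH had 0 reads in each squamocin library, which makes their counts at least 14.4-fold and 12.7-fold lower against a floor of 3 reads per library. Counts per gene do not separate mature tRNAs from longer transcripts that span these genes, and their parts were not tested. The plot of log2 fold changes over the mitochondrial genome sets these classes side by side. The strand setting of the counting is not given in the sources used here, so reads of overlapping genes on opposite strands cannot be told apart.

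**Figure D2:**
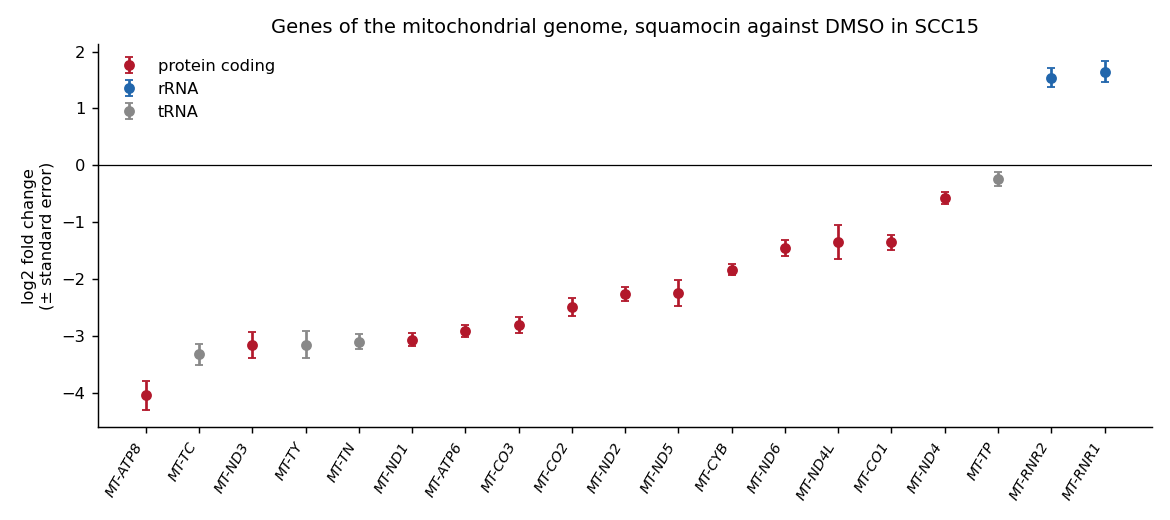
Log2 fold change with its standard error (vertical axis) of genes of the mitochondrial genome, squamocin against DMSO, with protein-coding genes in red, ribosomal RNAs in blue and tRNAs in grey; tRNAs with at most 3 reads in every library of a treatment are left out. The 13 protein-coding genes lie between -4.05 and -0.57 and both ribosomal RNAs lie above 1.5.

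Nuclear genes for mitochondrial proteins did not follow the mitochondrial genome. Of 36 nuclear Complex I subunits 29 were higher and 0 were lower (median 0.79), with 12 higher and 3 lower under equal totals. Without squamocin replicate 3, 31 were higher and 4 lower and the median was 0.49, and without DMSO replicate 1, 2 or 3 the higher subunits numbered 18, 17 and 18. NDUFS8, an iron-sulphur subunit, measured 2065, 2232 and 3740.2 with squamocin and 1121, 1082 and 1110.4 with DMSO (log2 fold change 1.23, 0.96 without replicate 3). NDUFV2, of the NADH-binding module, measured 325, 298 and 124 against 61.4, 41.9 and 56.7 (log2 fold change 2.10, 2.54 without replicate 3). Replicate 3 was the highest library for the first gene and the lowest treated library for the second. Mitochondrial ribosomal proteins were 40 higher and 5 lower of 78 (median 0.43), and 19 higher and 22 lower under equal totals. Without squamocin replicate 3 they were 41 higher and 18 lower (median 0.26), and without DMSO replicate 3 they were 26 higher and 3 lower. Proteostasis and import genes were 11 higher and 4 lower of 21, and 4 and 7 under equal totals, among them the matrix protease LONP1 (1.24) and, lower, the stress-sensing inner-membrane protease OMA1 (-0.98). Both of these kept their direction under equal totals, at 0.75 and -1.47.

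Central carbon metabolism leaned upward. Of 21 glycolytic and glucose uptake genes 18 were higher and 1 was lower (median 0.61), and under equal totals 8 were higher and 4 lower. ENO2, an enolase, measured 1309.9, 1519 and 1297 with squamocin and 358, 349 and 370.1 with DMSO, a log2 fold change of 1.93, and ALDOA had one of 1.41. PKM rose by 0.59 under the deposited scaling and by 0.0921 (limma adjusted p = 0.41) under equal totals. Citric acid cycle genes were 16 higher and 1 lower of 25, 10 higher and 7 lower under equal totals, and 19 higher and 4 lower without squamocin replicate 3. Of 20 targets of hypoxia-inducible factors 14 were higher and 4 were lower, and 9 and 6 under equal totals. CA9, a carbonic anhydrase used as a hypoxia marker, measured 189, 259 and 439 against 42.7, 38.0 and 37.5 (log2 fold change 2.79), and VEGFA measured 21733, 20797 and 15839 against 9614, 9452 and 9933 (1.00). EGLN3 (-0.98), a prolyl hydroxylase induced in hypoxia, fell. The targets thus did not share a single direction.

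Most antioxidant genes rose, as did 3 of 4 tested metallothionein and zinc transporter genes. Of 22 NRF2 targets 18 were higher and 1 was lower (median 0.88), and 13 were higher and 3 lower under equal totals. The ferritin heavy chain gene FTH1 measured 107160.0, 109362 and 152006 with squamocin and 37734, 35614 and 35049 with DMSO (log2 fold change 1.75). The heme oxygenase gene HMOX1 measured 776, 751 and 1102 against 305, 271 and 289 (1.58). The aldo-keto reductases AKR1C2 (2.53) and AKR1C1 (2.35) rose further, although they are near-identical copies whose reads may have been divided. The thioredoxin reductase gene TXNRD1 rose by 0.63, and by 0.13 (limma adjusted p = 0.349) under equal totals. Of 9 metallothionein and zinc transporter genes listed 4 were tested. Under equal totals 3 of them were higher and 1 was lower. The metallothionein MT2A measured 45822, 44021 and 81612 against 16763, 16320.4 and 16729 (log2 fold change 1.72, 1.44 without replicate 3), highest in replicate 3.

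Sterol genes were split between strong rises and no call. Of 22 genes of cholesterol synthesis and uptake 12 were higher and 1 was lower, 16 were higher and 2 lower without squamocin replicate 3, and 8 were higher and 7 lower under equal totals. INSIG1, the sterol-sensitive ER retention protein of SCAP, measured 5925, 5958 and 6613 with squamocin and 825, 761 and 809 with DMSO, a log2 fold change of 2.95 ± 0.0858 (limma adjusted p = 3.2e-06). MSMO1 (2.25), MVD (2.07) and HMGCS1 (2.05), enzymes of the pathway, rose as well. Among 11 fatty acid synthesis genes 5 were higher and 3 lower, and 1 and 5 under equal totals, from ELOVL6 (-1.34) to the acetate-activating ACSS2 (1.42).

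The translation machinery and zinc finger genes lay at opposite ends. Cytosolic ribosomal protein genes, which share terminal oligopyrimidine starts, were 82 higher and 1 lower of 85, with a median log2 fold change of 1.51. Their share of normalized counts was 5.94%, 5.94% and 8.72% with squamocin and 3.34% to 3.38% with DMSO (exact permutation test, two-sided p = 0.1). The lower member was RPL7L1 (-0.69), a ribosome assembly factor named for its similarity to a ribosomal protein. Under equal totals 80 were higher and 1 lower, with a median of 1.01. Leaving out squamocin replicate 3 gave 82 higher and 3 lower, with a median of 1.24. The host genes of small nucleolar RNAs were 17 higher and 1 lower of 23 (median 1.65), 15 and 3 under equal totals, and 18 and 4 without squamocin replicate 3, with SNHG15 at 2.87 and GAS5 at 2.35. Of 166 zinc finger genes on chromosome 19, a cluster of mostly transcriptional repressors, 13 were higher and 111 were lower (median -0.79), and 9 and 139 under equal totals. ZNF302 measured 70.7, 55.9 and 88.3 with squamocin and 496, 534 and 553 with DMSO (log2 fold change -2.89), whereas ZNF333 measured 604, 695 and 577 against 208, 246 and 185 (1.55). Many of these zinc finger genes share sequence, so their counts may include reads from one another. The plot of list medians places these groups among the other lists.

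**Figure D3:**
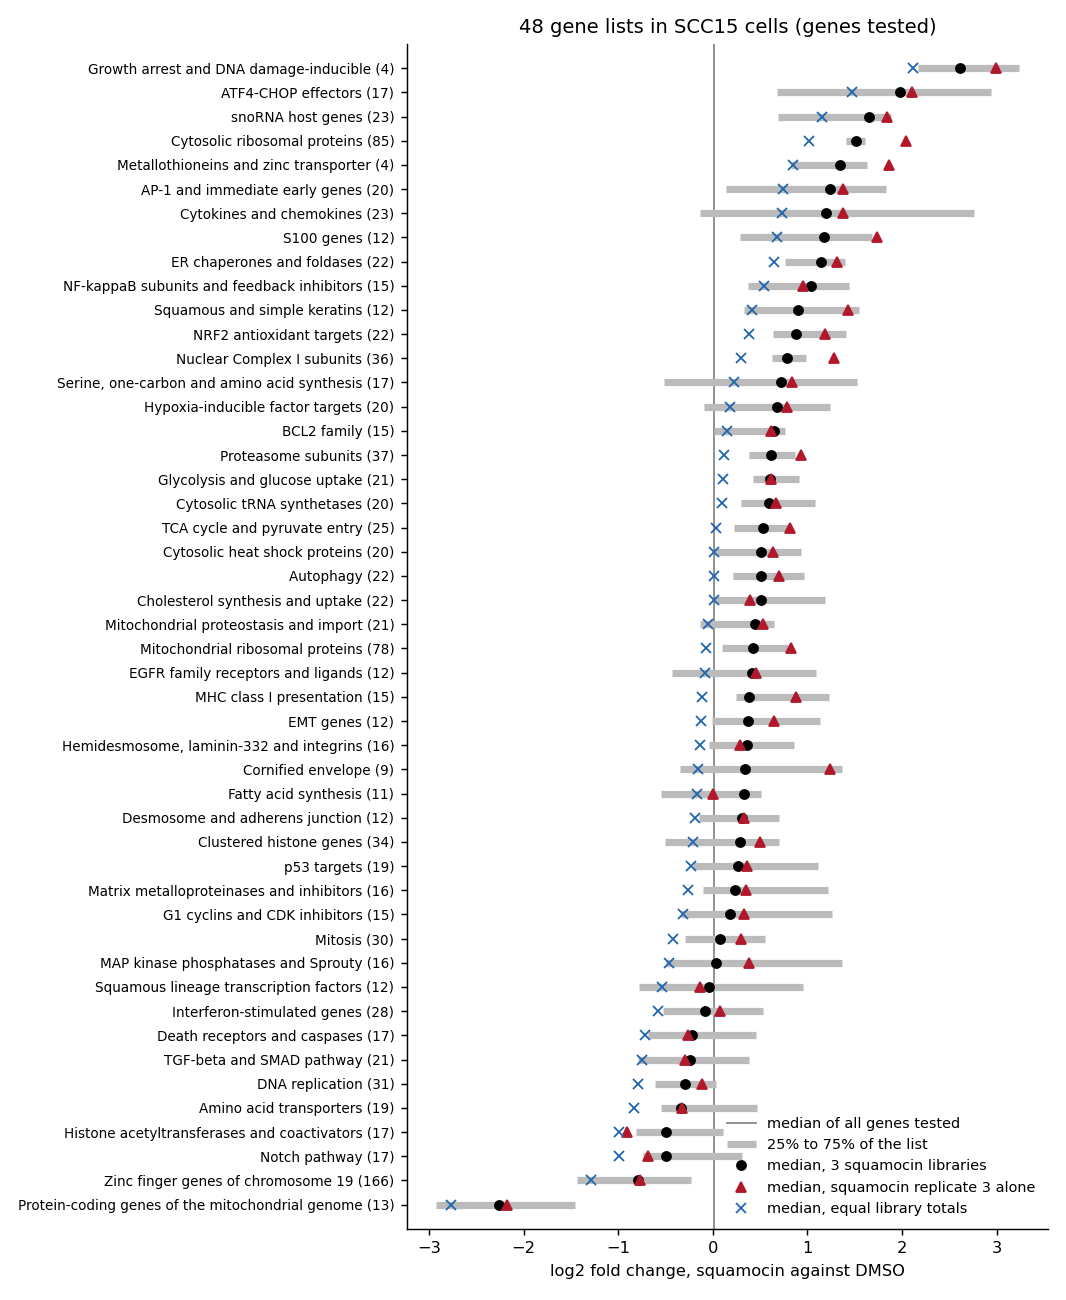
Log2 fold change (horizontal axis) of 48 gene lists, with black circles for the median of the tested members, grey bars for the middle 50% of members, red triangles for the median in squamocin replicate 3 alone and blue crosses for the median with equal library totals; numbers in parentheses are genes tested. The lists run from the protein-coding genes of the mitochondrial genome at -2.26 to the 4 growth arrest genes at 2.62, and cytosolic ribosomal proteins show replicate 3 to the right of the median over all 3 libraries.

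Growth arrest genes rose while replication and mitosis genes were split. GADD45A, GADD45B and GADD45G, sensors of genotoxic and metabolic stress, rose by log2 fold changes of 2.50, 2.73 and 4.76. GADD45A measured 6662, 7362 and 10286 with squamocin and 1525, 1377 and 1323 with DMSO. Among 15 G1 cyclins, kinases and inhibitors 6 were higher and 4 were lower, and 5 and 9 under equal totals. CDKN1C, encoding the inhibitor p57, measured 1571, 1788 and 2532 against 199.6, 133 and 130.1 (log2 fold change 3.66 ± 0.224, limma adjusted p = 2.72e-05). CDKN1A, encoding p21, measured 10985, 11349 and 12739 against 5112, 4705 and 4866 (1.25). Of the inhibitors of cyclin-dependent kinases, CDKN2D (1.81), CDKN2A (1.51) and CDKN2B (1.26) rose too, the rise of CDKN1B (0.23) was smaller than the shift under equal totals, and CDKN2C (-0.87) fell. The phosphatase gene CDC25A (-1.48) and the cyclin gene CCNE2 (-1.92) fell too.

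Of 31 DNA replication genes 3 were higher and 14 were lower (median -0.29), and 1 was higher and 28 were lower under equal totals. Without DMSO replicate 2 the lower genes numbered 9. The flap endonuclease gene FEN1 measured 391, 402 and 651 with squamocin and 1271, 1288 and 1287 with DMSO (log2 fold change -1.45). PCNA measured 1530.1, 1766 and 2569 against 2384, 2525 and 2546. Its log2 fold change was -0.38 (limma adjusted p = 0.101), and -0.60 (adjusted p = 8.9e-09) without squamocin replicate 3, whose value lay just above the control range. Mitosis genes numbered 12 higher (40.0%) and 7 lower (23.3%) of 30, against 30.9% and 30.0% of all genes tested. Under equal totals they numbered 3 higher and 18 lower. The anaphase ubiquitin-conjugating gene UBE2C measured 5412, 5736 and 8069 against 2259, 2247 and 2224 (1.49), whereas the kinetochore gene CENPF measured 1632, 1665 and 1426 against 4151, 4264 and 4377 (-1.44). CCNB1 overlapped between treatments, with 3048, 2959 and 3843 against 3110.4, 3191 and 3276, and its log2 fold change of 0.03 became -0.47 under equal totals.

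Death and p53 genes moved both ways. Of 19 p53 targets 9 were higher (47.4%) and 5 were lower (26.3%), against 30.9% and 30.0% of all genes tested. Under equal totals 6 were higher and 8 lower. BBC3, which encodes the BH3-only protein PUMA, measured 2864, 3037 and 3817 with squamocin and 305, 279 and 317 with DMSO, a log2 fold change of 3.42 ± 0.125 (limma adjusted p = 5.49e-06). PMAIP1, encoding NOXA, rose by 1.67 and FAS, a death receptor, by 1.45. These 3 genes were higher in each treated library than in any control library. FADD, the adaptor that joins death receptors to caspases, fell from 447, 394 and 385 to 108, 114 and 132 (-1.79), and CASP6 (-1.17), a caspase gene, fell. MDM2 (-0.30), the p53 ligase, and BTG2 (-0.86), an antiproliferative p53 target, were lower. Autophagy genes were 15 higher and 0 lower of 22 (median 0.51), and 9 higher and 6 lower under equal totals. They were 17 and 1 without squamocin replicate 3, and 10 and 0 without any single DMSO library. The cargo receptor gene SQSTM1 measured 27311, 26563 and 27747 against 4986, 4793 and 5048 (2.46), with little spread within either treatment.

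Inflammatory genes rose, while interferon-stimulated genes went both ways, as all genes tested did. Of 23 tested cytokines and chemokines 16 were higher and 4 were lower (median 1.20), and 12 and 7 under equal totals. LIF, an IL-6 family cytokine, measured 6723, 7519.8 and 6348 with squamocin and 712, 711 and 684 with DMSO, a log2 fold change of 3.28 ± 0.0907 (limma adjusted p = 3.04e-06). The neutrophil chemokine genes CXCL3 (3.11) and CXCL8 rose, the latter from 286, 267 and 292 to 1748, 1885 and 2798 (2.89). Their relative CXCL1 measured 1849, 2063 and 3088 against 3909.8, 3897 and 3728 and fell (-0.76). IL6 measured 2809.9, 3045 and 4675 against 5354, 5696 and 5420.2. The fall of IL6 (-0.68, limma adjusted p = 0.0144) was lost without squamocin replicate 2 (-0.60) or DMSO replicate 2 (-0.66). CSF2 (4.62) and TNF (4.53) rose from low levels, with means over the 6 libraries of 93.7 and 28.0. Both means were under the 100 required of the largest rises.

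Of 15 NF-kappaB subunits and feedback inhibitors 11 were higher and 0 were lower (median 1.04), and 9 and 1 under equal totals. NFKBIA, which encodes the inhibitor IκBα, measured 21179, 22108 and 29467 with squamocin and 4823, 5091 and 5006 with DMSO (2.27). SOCS1, which restrains cytokine receptors, measured 1366, 1331 and 1820.3 against 68.2, 57.7 and 58.5. Both inhibitors were higher in each treated library. Among 28 interferon-stimulated genes 6 were higher (21.4%) and 9 lower (32.1%), against 30.9% and 30.0% of all genes tested. Under equal totals 5 were higher and 17 lower. Without squamocin replicate 3, 9 were higher and 15 lower. IRF1 measured 11052, 10931 and 11839 against 2315, 2226 and 2209 (2.32) and IRF7 rose by 1.91, whereas DDX58, the RNA sensor RIG-I, measured 4748, 4426 and 4459 against 10516, 11693 and 10844 (-1.28). OASL, an oligoadenylate synthetase-like gene, measured 56678, 65706 and 79742 against 66188, 67687 and 65812 and was not called. Among 15 genes of MHC class I presentation 8 were higher and 0 were lower, 6 and 3 under equal totals, and 9 and 1 without squamocin replicate 3, led by HLA-F (1.97) and the light chain gene B2M (1.17). The HLA genes are close copies, so their separate values are uncertain.

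Squamous and surface genes showed rises of individual keratins and S100 genes beside falls of others. Of 12 tested keratins 8 were higher and 1 was lower (median 0.90), and 6 and 3 under equal totals. Without squamocin replicate 3 they were 9 higher and 2 lower (median 0.64), and without any single DMSO library 6 higher and 1 lower. KRT16, a keratin of stressed and wounded epithelium, measured 11021, 11324 and 17612 with squamocin and 2895, 2862 and 2855 with DMSO (2.18), and KRT10, a keratin of differentiation, rose by 2.04. Both were highest in replicate 3. Of 12 S100 genes 8 were higher and 2 were lower, and 8 and 3 under equal totals. S100A14 measured 868, 939 and 1438 against 96.4, 83.8 and 81.2 (3.59). The calprotectin pair went the other way: S100A8 measured 48.7, 59.3 and 137 against 613, 566 and 625 (-3.02), and S100A9 measured 92.7, 133 and 194 against 688, 596 and 731 (-2.31). Within the epithelial ETS factors ELF3 measured 423, 385 and 327 against 32.4, 41.1 and 31.4 (3.40), whereas its relative EHF measured 159, 162 and 194 against 969, 1119 and 1008 (-2.58). The treatments did not overlap for any of these genes. Cornified envelope genes were 4 higher and 3 lower of 9 tested. Desmosome and adherens junction genes were 7 higher and 1 lower of 12, and 2 higher and 6 lower under equal totals. The desmosome and junction counts were 7 and 3 without squamocin replicate 3, and 5 and 1 without any single DMSO library.

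Hemidesmosome, laminin and integrin genes were 8 higher and 1 lower of 16, 4 and 5 under equal totals, and 11 and 3 without squamocin replicate 3. Matrix metalloproteinases and their inhibitors were 8 higher and 3 lower of 16, 6 and 7 under equal totals, and 11 and 3 without squamocin replicate 3. Matrix genes included MMP1, an interstitial collagenase, at 309.5, 313 and 327 with squamocin and 32.4, 24.5 and 21.8 with DMSO (log2 fold change 3.56). LAMB3, a chain of laminin-332, had a log2 fold change of 1.71 while LAMA3, its partner chain, fell by 0.61 on the log2 scale. The LAMA3 call was lost when any single DMSO library was left out, at -0.64 to -0.59, and its log2 fold change was -0.35 without squamocin replicate 3. FN1 measured 53266, 51679 and 31053 against 59830.4, 55954 and 59597. It was not called with all libraries (-0.41, limma adjusted p = 0.144) and was called without squamocin replicate 3 (-0.16, adjusted p = 0.00206). Of 12 genes of the EGFR family and its ligands 7 were higher and 4 were lower, and 4 and 5 under equal totals. The receptors EGFR (-0.56), ERBB2 (-0.40) and ERBB3 (-1.34) fell. Among ligands HBEGF (1.02) rose and BTC was not called, and AREG measured 1793, 1720.1 and 2729 against 667, 732 and 735 (1.52).

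Immediate early and phosphatase genes diverged within their families. Of 20 AP-1 and immediate early genes 13 were higher and 4 were lower (median 1.24), and 12 and 5 under equal totals. EGR1 measured 44, 51.3 and 61.0 with squamocin and 446, 441 and 411 with DMSO (log2 fold change -3.04 ± 0.147, limma adjusted p = 1.22e-05) and FOS fell by 1.24 on the log2 scale, both genes being classical early targets of ERK signalling. IER3 measured 13800.3, 15395 and 24352 against 1684, 1747 and 1687 (3.34), NR4A1 measured 2282, 2193 and 1709.6 against 309, 268 and 274 (2.85), and JUN rose by 1.95. The nuclear MAP kinase phosphatases DUSP5 (3.41) and DUSP1 rose, DUSP1 from 1009, 991 and 892 to 8273, 8519 and 9504 (3.18). DUSP6, the ERK-specific phosphatase, measured 254, 285 and 371 against 299, 242 and 289.8 and was not called. The 16 genes of this list numbered 6 higher and 7 lower, and 5 and 9 under equal totals. Leaving out any single DMSO library left 4 lower, and leaving out squamocin replicate 3 gave 8 lower. The Sprouty genes SPRY4 (-0.65) and SPRY2 (-0.35) were lower with all libraries.

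Of 21 TGF-beta and SMAD pathway genes 5 were higher and 9 were lower, and of 17 Notch pathway genes 3 were higher and 6 were lower. Under equal totals these counts were 2 and 14, and 2 and 10. The lower Notch genes numbered 3, 5 and 3 without DMSO replicate 1, 2 and 3, and 7 without squamocin replicate 3. ID1, a target of BMP receptors, measured 1694, 1877 and 3353 with squamocin and 9441, 8642 and 8992 with DMSO (log2 fold change -2.03), and the inhibitory SMAD6 measured 85.8, 109 and 112 against 397, 435 and 416 (-2.02). ID2 was higher (1.53). The Notch receptor genes NOTCH3 (-2.91) and NOTCH2 (-0.74) were lower, whereas the target genes HES4 (2.45) and HES1 (1.59) were higher. HES4 measured 4287, 5074 and 9883 against 1305, 958 and 1052, and HES1 1706, 1709 and 2479 against 690.2, 582 and 656. The NOTCH2 call was lost when any single DMSO library was left out, at -0.75 to -0.72, and its log2 fold change was -0.42 without squamocin replicate 3. Of 17 histone acetyltransferases and coactivators 3 were higher and 8 were lower, and without squamocin replicate 3 the counts were 7 and 10, and 0 and 11 under equal totals. KMT2D, a histone methyltransferase with a long transcript, measured 2029.8, 1916 and 486 against 4181, 3975 and 4181, and its log2 fold change was -1.73, or -1.06 without replicate 3.

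KMT2D was one of the genes on which squamocin replicate 3 departed most. Over the protein-coding genes tested, the departure of replicate 3 was lower for genes of greater exonic length. Exonic length here is the number of bases covered by any annotated exon of a gene, which can exceed the length of a transcript. Among 10438 protein-coding genes with a mean of at least 100, replicate 3 was more than 2-fold above the mean of replicates 1 and 2 for 98 and more than 2-fold below it for 162, against 3 genes more than 2-fold apart between replicates 1 and 2. An exonic length was found in GENCODE release 44 for 12740 of 12766 protein-coding genes tested (99.8%). Across genes, which are not independent replicates and share these libraries, the Spearman correlation of the departure of replicate 3 with exonic length was -0.497, and that of replicate 1 minus 2 was 0.124. The response itself had a correlation with exonic length of -0.238, and of -0.152 without replicate 3. In the shortest quintile of genes, with up to 3004 exonic bases, the median log2 fold change was 0.397, with 1124 higher and 474 lower of 2548, and in the longest quintile it was -0.249, with 508 higher and 1044 lower. Without replicate 3 these medians were 0.231 and -0.152. Under equal totals the shortest quintile had 652 higher and 908 lower genes (median -0.098) and the longest 153 and 1664 (median -0.75), so the direction in short genes turned. The plot by exonic length shows both trends, and the part of length in the list results was not tested. By annotated class, processed pseudogenes were 226 higher and 43 lower of 502 (median 0.79), though they share reads with their parent genes, and long intergenic RNAs were 112 higher and 227 lower of 586 (median -0.42).

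**Figure D4:**
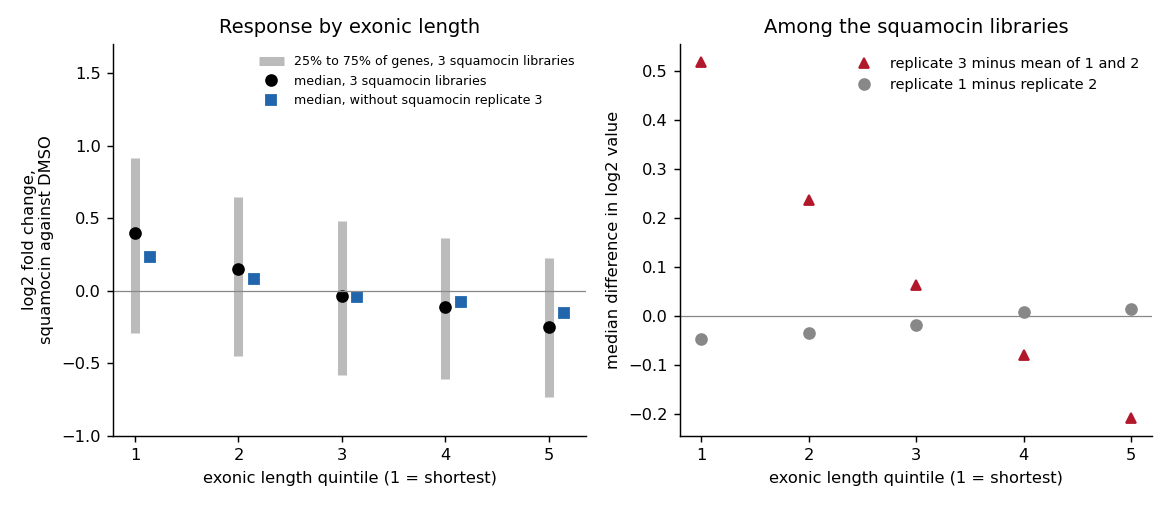
Left, log2 fold change of protein-coding genes (vertical axis) by quintile of exonic length, with black circles for medians, grey bars for the middle 50% of genes and blue squares for medians without squamocin replicate 3; right, median difference in log2 value between squamocin libraries, with red triangles for replicate 3 minus the mean of replicates 1 and 2 and grey circles for replicate 1 minus 2. Under the deposited scaling the response median goes from 0.397 (-0.098 under equal totals) in the shortest to -0.249 in the longest genes, and the replicate 3 median from 0.519 to -0.209.

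The 20 genes with the largest rises and falls, picked by the conditions given above, were set beside SCC25 cells under the same treatment. Of these, 17 passed the minimum mean there. Responses of 7540 of 14454 genes tested in both lines differed (52.2%, limma difference of responses at an adjusted p below 0.05). Of the 17 genes 12 differed, each with the larger change in SCC15, but the genes were chosen for the size of their change in SCC15, which favours that direction. HSPA6 had log2 fold changes of 5.87 in SCC15 and 2.04 in SCC25, a difference of 3.84 ± 0.381 (limma adjusted p = 4.46e-06). In SCC25 it averaged 99.3 with squamocin and 23.4 with DMSO. GDF15 had log2 fold changes of 4.27 and 2.09, a difference of 2.18 ± 0.208 (limma adjusted p = 3.25e-06), with an SCC25 DMSO mean of 3333 against 32.4 in SCC15. DDIT3 had 4.30 and 2.63, a difference of 1.67, and PPP1R10 had -3.70 and -1.98, a difference of -1.72. NEURL3 differed by 2.56, or by 0.86 with a pseudocount of 10, and its SCC25 DMSO mean of 288 was far above the 3.38 of SCC15. The other 5 had no detected difference, namely SOCS1 (4.58 and 4.36, limma adjusted p = 0.270), LCMT2 (-3.99 and -3.99, adjusted p = 0.997), MT-ATP8 (-4.05 and -3.39, adjusted p = 0.102), GADD45G (4.76 and 5.52, adjusted p = 0.243) and RIBC2 (-3.67 and -4.15, adjusted p = 0.190). The plot of both lines shows each pair. A p above the threshold does not show that the responses were equal. The lines were normalized in separate tables, so the levels are not on a common scale.

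**Figure D5:**
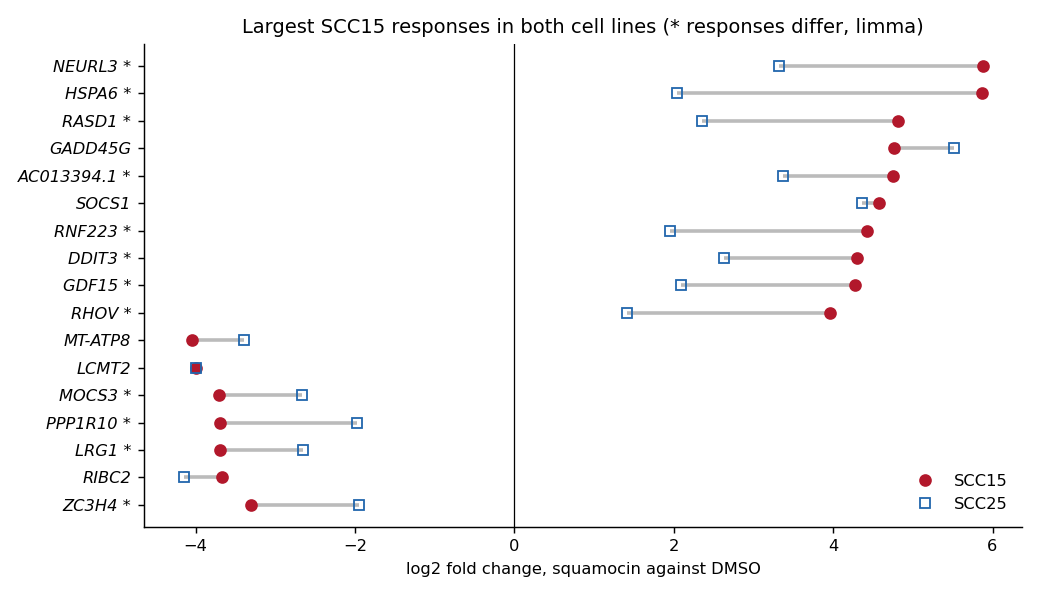
Log2 fold change of squamocin against DMSO (horizontal axis) for 17 of the 20 genes with the largest changes in SCC15, with red circles for SCC15, open blue squares for SCC25 and a grey line joining the pair; asterisks mark genes whose responses differed in limma. HSPA6 shows the widest gap, 5.87 against 2.04, and LCMT2 the narrowest. The 20 genes averaged 100 or more and met the other conditions set for the largest changes.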

How the data were processed

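RNA-seq of SCC15 cells given squamocin or DMSO for 24 h was analysed from 1 table of the whole line, and SCC25 cells from a second. The authors aligned reads to GRCh38 with HISAT2 2.0.5 and counted them per gene with featureCounts 1.5.0-p3. The deposited signal values are read counts divided by 1 DESeq2 size factor per library, set within each line. Dividing by the smallest step of each library gave whole reads for 100.0% of values within 0.01. The SCC25 headers name FPKM, but the steps did not depend on gene length. The strand setting and the annotation release are not given in the sources used here.

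Genes averaging 10 or more across the 6 SCC15 libraries were tested with limma 3.58.1 (trended empirical Bayes) on log2(value + 1), in R 4.3.3, with Benjamini-Hochberg adjustment over the 15902 genes and a threshold of 0.05. Fold changes are on that log2 scale, which understates the change of low genes. On simulated data with 200 of 15902 SCC15 genes changed 4-fold, limma recovered 93.5% and 5.56% of its calls were false. The false share was 6.40% in edgeR, 17.3% in DESeq2 and 8.87% for limma's difference from SCC25. In the data far more genes were called and squamocin replicate 3 stood apart, so these shares need not hold there. The difference from SCC25 was tested in limma over 14454 genes. Exact permutation tests used scipy 1.17.1 and exonic lengths came from GENCODE release 44. Promoter windows came from RefSeq, and 11109 tested genes had one. Alternatives were other pseudocounts, filters, scalings and tools (edgeR 4.0.16, DESeq2 1.42.0), the replicate number as a block and leaving out each library.

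The members and gene lists were chosen with earlier results of these data known. Named genes were the 10 largest rises and 10 largest falls among called protein-coding genes that averaged 100 or more and whose treated and control libraries did not overlap, the 2 largest rises and 2 largest falls of each list under the same conditions, the 10 genes with the highest mean in each treatment, a set of pathway and cell type markers, and the 5 genes in each direction on which squamocin replicate 3 departed most. Genes of chromosome 8 and names turned into dates were left out, and some results are not reported here. Genes given with only a log2 fold change outside this rule were chosen after their values were seen. The labels do not say whether the replicate numbers pair the libraries, and the main test did not pair them.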

Additional observations from a re-analysis of the deposited data

Results flagged for a closer look

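Of the genes picked by rule for the largest changes in SCC15, 17 were also tested in SCC25. Of these, 12 had responses that differed between the lines in limma's test of the difference. The values are the SCC15 minus the SCC25 log2 fold change. Among rises the difference was 3.84 for HSPA6, 2.56 for NEURL3, 2.55 for RHOV, 2.47 for RASD1, 2.47 for RNF223, 2.18 for GDF15, 1.67 for DDIT3 and 1.38 for AC013394.1. Among falls it was -1.72 for PPP1R10, -1.34 for ZC3H4, -1.04 for MOCS3 and -1.04 for LRG1. Leaving out any single library lost none of these 12 calls. With a pseudocount of 10 the LRG1 difference was -0.48 (limma adjusted p = 0.0837). The genes were chosen by the size of their change in SCC15, so a larger change there is favoured by the choice, and 52.2% of all 14454 genes tested in both lines differed.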

How the results depend on the processing

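The balance of higher and lower calls moved with the scaling. With equal library totals 2357 genes were higher and 8033 lower, of which 851 and 4414 changed by more than 2-fold, and 44 genes had calls opposite to those under the deposited scaling. With equal totals and without squamocin replicate 3, an alternative chosen after seeing the data, 9151 genes were lower, and 959 were higher and 3980 lower by more than 2-fold. Lower genes past 2-fold numbered 3865 with all genes above 0 and 1482 with at least 10 in every library, which test more and fewer genes. Leaving out 1 library in turn gave 3902 to 6103 higher and 3693 to 5920 lower genes, the highest counts without squamocin replicate 3, 1858 to 2126 higher and 2044 to 2383 lower past 2-fold, and 6812 to 9524 genes whose response differed from SCC25. Other tools, pseudocounts and TMM factors kept these counts within 1.5 times.

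The replicate block gave 4665 higher and 4451 lower genes and lost the calls of 3 of 228 named genes. Libraries with the same number did not deviate together over genes, with correlations of -0.051 to 0.0032. No squamocin library correlated best with its own number. With 3 libraries per treatment and squamocin replicate 3 apart from the others, this cannot show whether numbers mark shared cultures or preparations. Of the 228 named genes, 205 kept their direction and call under equal totals, 219 without squamocin replicate 3 and 227 in edgeR.

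The 6 named genes that changed sign under some alternative were not called under the deposited scaling. Under equal totals the log2 fold change was -0.49 for OASL, -0.38 for ACTG1, -0.47 for CCNB1, -0.38 for DUSP6, -0.44 for SMIM11A and -0.17 for TPGS1, and with squamocin replicate 3 left out as well -0.54, -0.40, -0.50, -0.45, -1.33 and -0.51. With TMM factors OASL was at -0.040 and CCNB1 at -0.012. Leaving out 1 library gave -0.13 to 0.12 for OASL, -0.088 to 0.10 for CCNB1, -0.035 to 0.24 for DUSP6, -0.92 to 0.69 for SMIM11A and -0.10 to 0.55 for TPGS1, the lowest value in each case without squamocin replicate 3. Beyond the shift by scaling, the cause was not tested.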
